A study of Mus musculus with 3 samples.

Results

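Calmodulin and the kinases it switches on were described by the RNA level of 9 genes in the mouse medial prefrontal cortex (mPFC), a part of the frontal lobe that serves working memory and the control of behaviour. The genes are Calm2 and Calm3, which encode calmodulin, Camk2a, Camk2b, Camk2d and Camk2g, which encode the subunits of CaM kinase II (CaMKII), Camk4, which encodes CaM kinase IV, and Camkk1 and Camkk2, which encode the CaM kinase kinases. They were taken by symbol from a table of 46073 Ensembl gene rows, and all 9 were found there. The tissue came from naïve C57BL/6 mice aged 3 months, with no treatment, no second genotype and no second condition in the labels. The series has 3 samples, 1 each of DNA enriched with an antibody to methylated cytosine, input DNA and RNA, and the DNA samples were not analysed here.

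Each gene had 1 value and there was no replicate to set it against. The design text names 3 replicates for RNA, but the table has 2 value columns and these held the same number in all 46073 rows, so they count as 1 sample. No value below therefore has an error, no difference has a test, and every ratio compares 2 values of 1 table. The unit is FPKM, a fragment count scaled to transcript length in kilobases and to 1000000 mapped fragments, which is a level per length and can be set side by side between genes. How deeply the RNA was sequenced is unknown, and no counting interval can be given. Unsorted mPFC tissue was measured, so more cells of a type and more RNA per cell cannot be told apart.

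Calmodulin is a small calcium sensor that changes shape when calcium enters a cell and then binds and activates other proteins. CaMKII is one of the most abundant proteins of the excitatory synapse, where it forms rings of mixed subunits, phosphorylates itself and stays active after the calcium signal has passed. The CaM kinase kinases stand above CaM kinase I and CaM kinase IV in a cascade, and CaM kinase IV acts in the nucleus on transcription factors such as CREB. Cortical excitatory neurons are the best known site of the alpha subunit of CaMKII, whereas the gamma and delta subunits are also found in many tissues outside the brain.

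Markers of cortical neurons were high in the RNA. The neuronal genes Snap25, Syt1 and Rbfox3 were at 1279, 303 and 80.0 FPKM, and Slc17a7, the glutamate transporter of cortical excitatory neurons, was at 353 FPKM. Tbr1, the lowest of the excitatory markers, was at 20.7 FPKM. Markers of inhibitory neurons ran from Slc32a1 at 18.6 to Gad1 at 127 FPKM. Those of astrocytes ran from Aqp4 at 14.6 to Gfap at 58.7 FPKM. Those of oligodendrocytes ran from Mog at 30.8 to Mbp at 912 FPKM. Microglial markers ran from Cx3cr1 at 10.6 to Csf1r at 18.0 FPKM. Endothelial markers ran from Pecam1 at 3.47 to Cldn5 at 10.8 FPKM, so the RNA was of mixed cells. The striatal markers Six3, Drd2 and Adora2a lay between 0.272 and 1.96 FPKM, all below the members. Of the cerebellar list, Gabra6 was at 0.0293 FPKM and Pcp2 at 2.13 FPKM, while Calb1, which cortical neurons also express, was at 27.5 FPKM. Mitochondrial rows held 50.04% of all summed FPKM, which lowers the share of every other gene.

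All 9 genes were well above the detection limit of 1 FPKM, which 31.5% of all rows and 58.6% of the protein-coding rows reached. The same shares are the background for the counts of each list below, and those lists were chosen for brain calcium signalling. From high to low the order was Calm3, Calm2, Camk2a, Camk2b, Camk2g, Camkk2, Camkk1, Camk2d and Camk4, from 1259.8 to 12.3 FPKM, a range of 103-fold. Their median was 58.2 FPKM, against 2.59 FPKM over the 20635 protein-coding rows and 9.86 FPKM over those protein-coding rows at 1 FPKM or more. The 4 highest members exceeded 100 FPKM, a level that 2.82% of protein-coding rows reached. The 9 genes together made up 0.853% of the summed FPKM outside the mitochondrial rows.

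**Figure D1:**
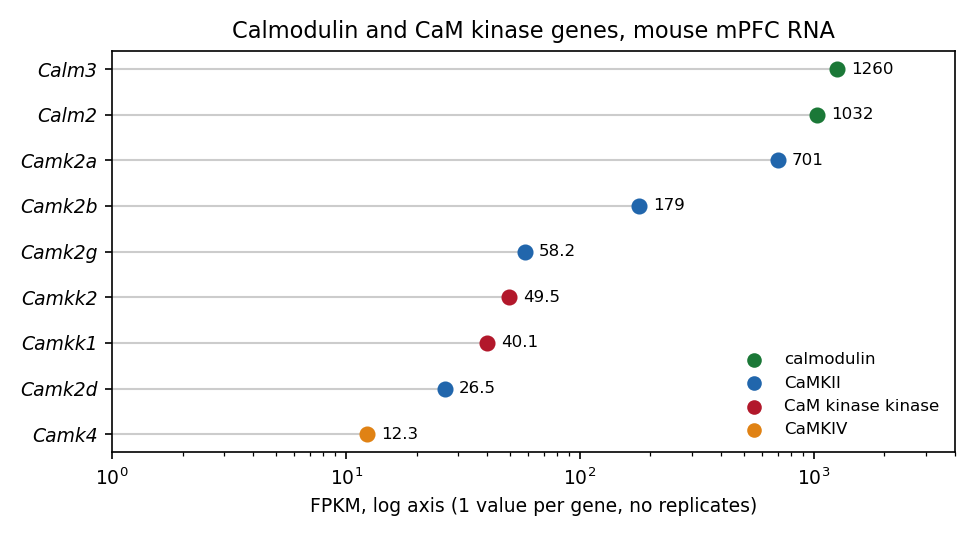
Level of each of the 9 genes in FPKM on a log axis, 1 point per gene with its value, coloured by family. Calm3 at 1259.8, Calm2 at 1032 and Camk2a at 701 FPKM lie highest, with Camk2b at 179 FPKM, and the other 5 genes between 58.2 and 12.3 FPKM.

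Calm3 and Calm2 stood among the highest of all nuclear protein-coding genes. Calm3 (chromosome 7, 16915379 to 16924032, GRCm38) was at 1259.8 FPKM, rank 4 of 20635. Calm2 (chromosome 17, 87433401 to 87446935) was at 1032 FPKM, rank 9. Calm3 was 1.22-fold above Calm2, and without replicates it cannot be said whether that gap exceeds the spread. Of their summed FPKM of 2292, Calm3 held 54.96% and Calm2 45.04%. The protein they encode is identical, but the way fragments matching both of them, or a pseudogene copy, were divided is not given in the sources used here, so the split is uncertain.

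Genes of calmodulin-like proteins lay far lower. Cabp1, a calcium-binding protein related to calmodulin that regulates channels, was at 93.8 FPKM. Cabp7 was at 26.4 FPKM and Caln1, calneuron 1, at 20.3 FPKM. Calml4 was at 2.746 FPKM, and the epithelial genes Calml3, Calm4 and Calm5 were listed at 0. Of the 7 genes in this list, 4 reached 1 FPKM, with a median over all 7 of 2.746 FPKM.

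Genes of small proteins that bind and store calmodulin were also at high levels. Nrgn, neurogranin, which binds calcium-free calmodulin in dendritic spines, was at 874 FPKM, so that Calm3 was 1.44-fold and Calm2 1.18-fold above it. Pcp4, a small protein that speeds calcium exchange on calmodulin, was at 258 FPKM and Basp1, a membrane protein of nerve endings, at 172 FPKM. Marcksl1 at 23.6 FPKM and Marcks at 19.9 FPKM, both substrates of protein kinase C, were the lowest. Calm2 and Calm3 together, at 2292 FPKM, were 1.53 times the sum of all 7 genes of this list, 1500.2 FPKM. All 7 reached 1 FPKM, with a median of 118 FPKM.

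The 4 CaMKII genes differed widely, with Camk2a far in front. Camk2a, the alpha subunit (chromosome 18, 60925307 to 60988152), was at 701 FPKM, rank 22 among protein-coding rows. Camk2b, the beta subunit, which binds actin filaments in spines (chromosome 11, 5969629 to 6066357), was at 179 FPKM, rank 266. Camk2g, the gamma subunit (chromosome 14, 20734873 to 20794157), was at 58.2 FPKM, rank 1083. Camk2d, the delta subunit, which is best known from heart muscle (chromosome 3, 126595487 to 126846326), was at 26.5 FPKM, rank 2711. Camk2a was thus 3.92-fold above Camk2b, 12.1-fold above Camk2g and 26.5-fold above Camk2d, and each of the 6 pairs within the family was at least 2-fold apart.

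As shares of the summed CaMKII level of 965 FPKM, Camk2a held 72.7%, Camk2b 18.5%, Camk2g 6.03% and Camk2d 2.74%. These are shares of RNA and not of subunits in the enzyme. Values are per gene, so the splice forms of each subunit were not told apart. The 3 genes other than Camk2a summed to 264 FPKM, still 2.45 times the 108 FPKM of the 4 CaM kinase I genes. Against cell type markers, Camk2a was 1.99-fold above Slc17a7 of excitatory neurons and 5.54-fold above Gad1 of inhibitory neurons. The pan-neuronal Snap25 was higher, at 1279 FPKM. Slc17a7 and Gad1 were the highest markers listed for their cell types. Neurod6 and Tbr1 of excitatory neurons were at 45.2 and 20.7 FPKM. Gad2 and Slc32a1 of inhibitory neurons were at 21.2 and 18.6 FPKM, so these ratios depend on the marker taken.

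**Figure D2:**
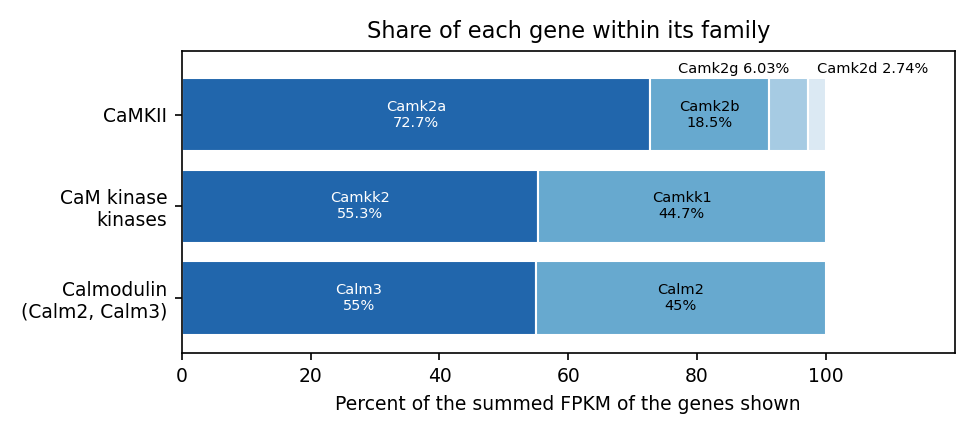
Percent of the summed FPKM held by each gene within the CaMKII family, the CaM kinase kinases and the pair Calm2 and Calm3, 1 bar per family. Camk2a takes 72.7% of the CaMKII bar, while Camkk2 and Camkk1 take 55.3% and 44.7% of theirs.

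The 2 natural inhibitor genes of CaMKII were unequal. Camk2n1 encodes a small protein that binds the active kinase, and it stood at 241 FPKM. Camk2n2, its paralog, was at 33.5 FPKM. The 4 CaMKII genes together were 3.52 times the sum of both inhibitors, 274 FPKM, and Camk2a was 2.91-fold above Camk2n1.

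Partners and substrates of CaMKII at the synapse were all detected, 16 of 16 at 1 FPKM or more, with a median of 20.5 FPKM. Dlg4, the scaffold PSD-95, was at 380 FPKM, Grin1, the obligatory NMDA receptor subunit, at 217 FPKM, and Syn1, synapsin 1 of synaptic vesicles, at 134 FPKM. Camk2a was higher than each of them, by 1.85-fold over Dlg4 and 3.23-fold over Grin1. Actn2, an actin crosslinker that binds CaMKII, was lowest at 3.10 FPKM, and Cacna1c, a calcium channel subunit, was at 5.05 FPKM. Grin2b, the receptor subunit that anchors CaMKII, was at 14.7 FPKM, and Camk2a was 47.6-fold above it. Grin2b was named for that role and not for its value.

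The opposing calcium-dependent enzyme, the phosphatase calcineurin, was also strongly represented. Its catalytic subunit gene Ppp3ca was at 350 FPKM, so that Camk2a was 2.003-fold above it, and Ppp3cb was at 81.3 FPKM. The regulatory subunit gene Ppp3r1 was at 259 FPKM, and its testis paralog Ppp3r2 at 0.0419 FPKM, the lowest of the list, followed by the calcineurin inhibitor gene Rcan3 at 5.06 FPKM. The CaMKII genes summed to 2.20 times the 439 FPKM of the 3 catalytic calcineurin genes. Of the 10 genes in the list, 9 reached 1 FPKM, with a median of 14.6 FPKM.

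The 2 CaM kinase kinases were close to each other. Camkk2 (chromosome 5, 122718380 to 122779522) was at 49.5 FPKM and Camkk1 (chromosome 11, 73016043 to 73042073) at 40.1 FPKM, ranks 1317 and 1746. Camkk2 was 1.23-fold above Camkk1, again with no spread to set this against. Their sum of 89.6 FPKM was 10.8-fold below that of CaMKII.

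The genes of their targets CaM kinase I and CaM kinase IV all had lower levels, and Camk4 the lowest of these. Pnck, the beta form of CaM kinase I, was at 39.0 FPKM, Camk1 at 30.4, Camk1d at 21.8 and Camk1g at 16.4 FPKM. The CaM kinase kinases summed to 0.832 times these 4 genes. Camk4 (chromosome 18, 32934941 to 33195767) was at 12.3 FPKM, the lowest of the 9 genes and rank 5226, which is 1.24 times the median of detected protein-coding rows. The sum of Camkk1 and Camkk2 was 7.31 times the level of Camk4, and CaMKII was 78.7 times that level.

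Camkk2 also phosphorylates AMPK, the energy sensor kinase, and Akt1 is a target of the family too. Akt1 was at 60.0 FPKM and the regulatory AMPK subunit gene Prkag2 at 37.2 FPKM. The catalytic AMPK genes Prkaa2 and Prkaa1 were at 4.89 and 4.65 FPKM, so that the CaM kinase kinases summed to 9.40 times their sum. Stk11, the other main AMPK kinase, was at 40.1 FPKM, so that Camkk1 was level with it to 3 digits and Camkk2 1.24-fold above it. Sirt1, a deacetylase coupled to AMPK, was lowest at 3.55 FPKM. All 9 genes of this list reached 1 FPKM, with a median of 8.35 FPKM.

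Genes of the route by which CaM kinase IV reaches transcription reached 1 FPKM in 14 of 14 cases, and their median was 9.07 FPKM. Mef2c, a transcription factor of excitatory neurons, was highest at 101.3 FPKM, with Mef2d at 45.8 FPKM and the deacetylase gene Hdac5, which represses Mef2 factors, at 41.1 FPKM. The CREB coactivator genes Crebbp and Crtc3 were lowest, at 4.09 and 3.15 FPKM. Camk4 was within 1.10-fold of Crem at 11.2 FPKM and 2.07-fold above Creb1 at 5.93 FPKM, both chosen for their role as CREB family factors.

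Of the genes of phosphatases known to act on CaM kinases and of their regulators, all 9 reached 1 FPKM and the median was 63.9 FPKM. Ppp2r1a, the scaffold of phosphatase 2A, was at 224 FPKM, Ppp1r9b, spinophilin, which brings phosphatase 1 to spines, at 203 FPKM, and the catalytic subunit gene Ppp1cb at 148 FPKM. The dedicated CaM kinase phosphatase genes Ppm1e at 35.6 FPKM and Ppm1f at 14.0 FPKM were the lowest. Camk4 stood at 0.344 times Ppm1e and 0.873 times Ppm1f.

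Among 15 kinase genes of the CaM kinase group, the 7 kinase members held ranks 1, 2, 5, 6, 7, 10 and 14. Places 3 and 4 were taken by Camkv, a kinase-like protein without known activity, at 172 FPKM, and by Dclk1, a microtubule-binding kinase with a CaM kinase-like domain, at 119 FPKM. The 4 CaM kinase I genes and Dclk2 filled the other places between members. Camk2b was 1.04-fold above Camkv, and 1 sample cannot show whether they differ. Dclk2 was at 15.2 FPKM and Dclk3 at 8.22 FPKM, the only one of the 15 below Camk4. All 8 kinase relatives outside the 9 genes reached 1 FPKM, with a median of 26.1 FPKM.

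**Figure D3:**
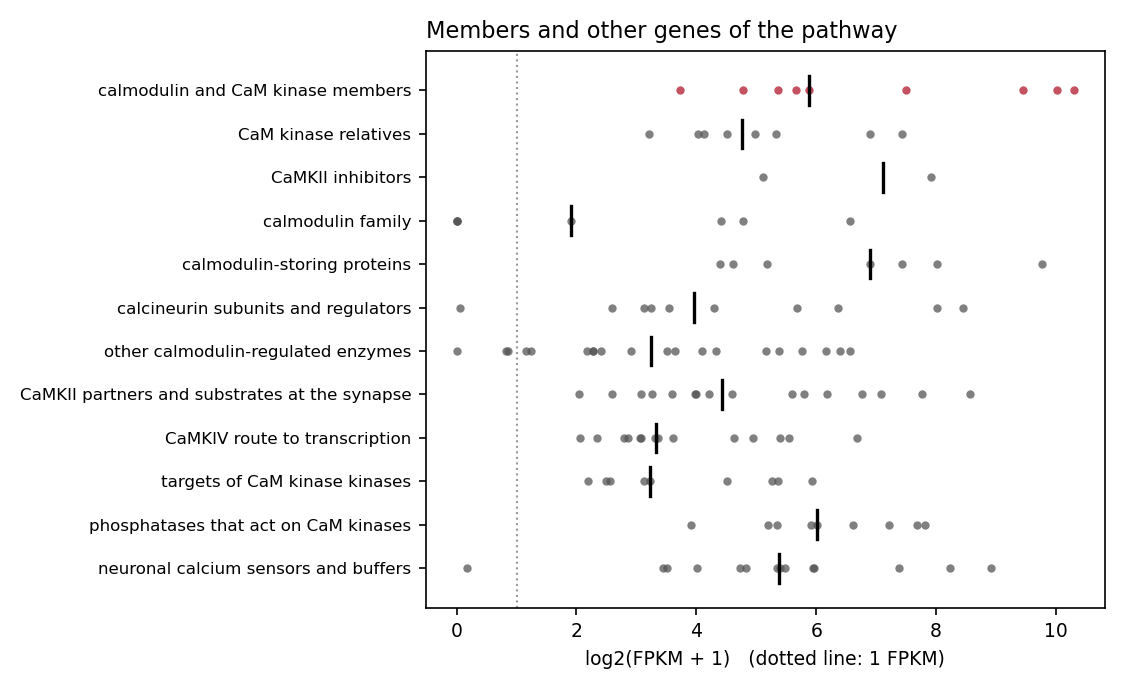
Level of every gene as log2(FPKM + 1), 1 row per list with the 9 members at the top (red points), and the list median as a black bar. The members' median of 58.2 FPKM lies above those of 8 of the other lists. It lies below those of the CaMKII inhibitors, the calmodulin-storing proteins and the phosphatases with their regulators.

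Over all 116 pathway genes outside the members, 108 reached 1 FPKM (93.1%) and their median was 22.5 FPKM. Of the 116, 20 were at 100 FPKM or more, a level that 2.82% of protein-coding rows reached. The members' median was higher than that of the pathway genes as a whole. Both sets were chosen with earlier results of these data known, so this only describes the sets as chosen. The lists were chosen for brain calcium signalling, and 58.6% of protein-coding rows reached 1 FPKM. How far that choice bears on the 93.1% was not tested. In the calmodulin family list the share was 57.1%, the lowest of the lists.

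Of the 36 pairs among the 9 genes, 28 were at least 2-fold apart on the log2(FPKM + 1) scale. The 8 closer pairs lay in 2 groups of neighbours. In the upper group Calm3, Calm2 and Camk2a were less than 2-fold apart. In the lower group Camk2g and Camkk2 were 1.17-fold apart, Camkk2 and Camkk1 1.23-fold, Camk2g and Camkk1 1.45-fold, Camkk1 and Camk2d 1.52-fold, and Camkk2 and Camk2d 1.87-fold. The widest steps down the order were from Camk2a to Camk2b, 3.92-fold, and from Camk2b to Camk2g, 3.08-fold.

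**Figure D4:**
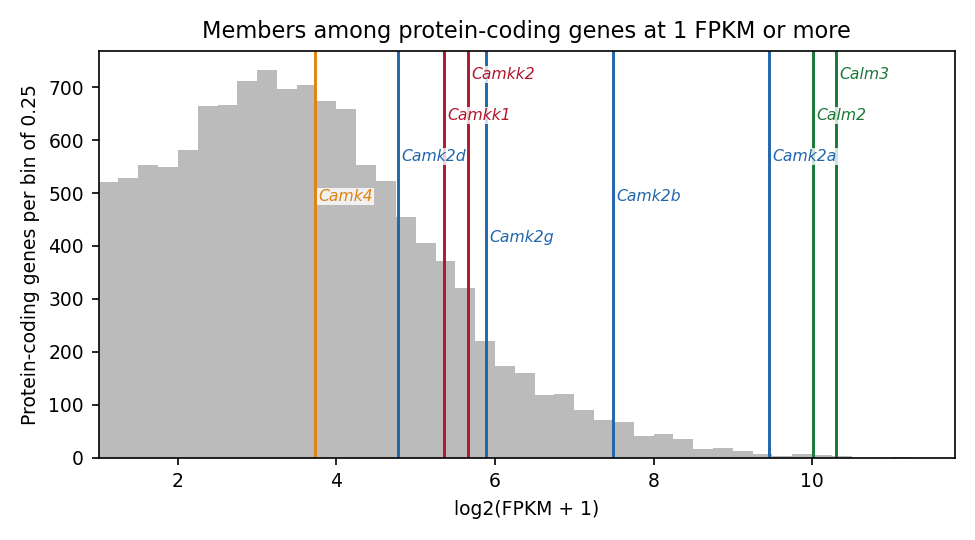
Number of protein-coding genes per bin of log2(FPKM + 1), from 1 upwards, with a vertical line at the level of each of the 9 genes. Camk4 at 3.73 stands near the middle of the distribution, and Calm3 at 10.30 and Calm2 at 10.01 stand in its upper tail.

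Within the table, 7 of the 9 genes were at or above the 90th percentile of protein-coding rows. Calm3, Calm2 and Camk2a stood at percentiles 99.98, 99.96 and 99.89, Camk2b at 98.7 and Camk2g at 94.8. Camkk2 was at percentile 93.6 and Camkk1 at 91.5. The exceptions were Camk2d at percentile 86.9 and Camk4 at 74.7.

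Camk2d and Camk4, the 2 lowest genes, had the longest genomic spans, 250.8 and 260.8 kb, and Calm3 and Calm2, the highest, the shortest, 8.65 and 13.5 kb. The other 5 spanned 26.0 kb (Camkk1) to 96.7 kb (Camk2b) in no such order. With 9 genes this is a description. RefSeq lists other genes within or across the spans of 6 of the 9, and whether fragments were assigned by strand is not given in the labels. Camkk2 overlaps P2rx4, an ATP-gated channel gene, at 8.13 FPKM. The overlapping long noncoding genes with a row in the table were all below 1 FPKM, led by 4732414G09Rik at 0.969 FPKM. That gene lies across the outermost upstream bound of Camkk1 and ends before the start used for the Camkk1 promoter below.

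The promoters of the members were looked at because the series is about DNA methylation, which in mammals falls mainly on CpG dinucleotides. The RefSeq table for GRCm38.p6 gave a window for 5 of the 9 genes: Calm3, Camk2b, Camk2d, Camkk1 and Camkk2. Only the 250 bases before the start were used, and for all but Calm3 the start in that table lies inside the outermost bounds of the gene. All 5 windows were rich in CpG, with 23 to 44 CpG each against a median of 6 over 32851 windows in the table. Those windows belong to 27025 genes, and no background of expressed protein-coding genes alone was compared. Camk2b had 44 CpG, more than 99.5% of windows, Calm3 33, Camkk2 32, Camkk1 29 and Camk2d 23, which is more than 86.7% of windows. The GC content lay between 68.4% (Camk2d) and 78.4% (Camk2b), against a median of 52.4%. The methylation of these bases was not analysed here.

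Calm3, the highest member, and Camk2b and Camk2d, which have the most and the fewest CpG, are shown to let the CpG density be seen. Camk2b is 6.76-fold above Camk2d in RNA level, but Calm3 has fewer CpG than Camk2b and 7.04-fold more RNA. A relation of CpG count to RNA level was not tested. The windows are chr7:16924033-16924282 (minus strand) for Calm3, chr11:6065749-6065998 (minus strand) for Camk2b and chr3:126596701-126596950 (plus strand) for Camk2d, each printed 5′ to 3′ along the gene with the start just after the last base. Capitals mark CpG.
Calm3: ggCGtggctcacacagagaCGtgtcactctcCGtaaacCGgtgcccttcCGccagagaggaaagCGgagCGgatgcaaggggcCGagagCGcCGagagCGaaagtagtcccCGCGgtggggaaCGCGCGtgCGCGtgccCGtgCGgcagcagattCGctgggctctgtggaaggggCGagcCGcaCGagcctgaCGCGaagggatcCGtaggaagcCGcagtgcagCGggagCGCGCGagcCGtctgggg
Camk2b: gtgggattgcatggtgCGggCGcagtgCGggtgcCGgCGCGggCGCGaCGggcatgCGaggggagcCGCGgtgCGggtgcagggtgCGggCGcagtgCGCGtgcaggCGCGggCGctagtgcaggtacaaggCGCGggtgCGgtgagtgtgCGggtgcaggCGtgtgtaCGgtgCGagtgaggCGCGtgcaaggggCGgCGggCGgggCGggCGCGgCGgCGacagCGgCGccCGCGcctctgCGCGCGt
Camk2d: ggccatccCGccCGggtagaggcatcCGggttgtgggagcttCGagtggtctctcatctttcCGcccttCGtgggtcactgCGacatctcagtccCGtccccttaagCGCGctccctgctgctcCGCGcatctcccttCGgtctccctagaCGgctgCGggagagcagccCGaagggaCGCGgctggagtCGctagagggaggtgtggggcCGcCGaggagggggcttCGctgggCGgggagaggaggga

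In these sequences the tetramer CGCG occurred 11 times in Camk2b, 7 times in Calm3 and 3 times in Camk2d (overlapping matches counted), and the longest stretch without a CpG was 17, 19 and 19 bases in the same order. Core motifs were searched on both strands in the 5 windows. None held a TATA box (TATAAA), which 12.4% of all windows hold, and none a full cAMP response element (TGACGTCA), which 1.55% hold. The shorter core of that element, TGACG, which lies inside the full one, occurred once each in Calm3 and Camkk1, against 17.8% of all windows. A GC box (GGGCGG) was present in 4 of 5, all but Calm3, against 32.7% of all windows, and a CCAAT box (CCAAT) in Camkk1 alone, against 33.8%. An E box (CACGTG) was in none of the 5 and in 6.02% of all windows. The shares are over all windows, whose median GC content was lower than that of each of the 5, and no windows matched for GC content were compared. A match is a description of letters and not a site in use.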

How the data were processed

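RNA of mouse mPFC was made into libraries with a TruSeq RNA v2 kit, per the labels' protocols. CASAVA 1.8.2, TopHat and Cufflinks with build mm10 are named in the submitters' processing notes. Their settings, the annotation release, strand handling and how replicates were combined are unstated in these sources. The authors deposited FPKM values per gene, which depend on the transcript length assumed and on how shared fragments were divided. The 2 value columns were identical, so 1 value per gene was used.

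Identifiers were matched to symbols with an Ensembl table (45139 of 46073 rows named), and gene classes and coordinates came from RefSeq GRCm38.p6 by symbol. Levels, ranks, ratios, shares and differences of log2(FPKM + 1) were computed with Python 3.11.15, pandas 2.3.3 and numpy 2.4.6. A gene counted as detected at 1 FPKM. With 1 sample no test was possible. The percentile and pair procedures were checked on constructed examples with known answers. The text names all 9 members, all genes of the kinase relative, inhibitor and calmodulin family lists, and the 3 highest and 2 lowest of each other list. Grin2b, Creb1, Crem and Prkaa2 were added for their roles. A gene that the rule takes is not reported here and is left out of the counts of its list. The members and lists were chosen with earlier results of these data known.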

Additional observations from a re-analysis of the deposited data

How the results depend on the processing

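No paired analysis was possible because there was 1 RNA sample with 1 value per gene, and for the same reason no replicate could be left out. The number of members detected stayed at 9 of 9 with a limit of 0.1 or 5 FPKM and under both rescalings. The median of the members, 58.2 FPKM, was 73.8 when all rows were rescaled to sum to 1000000 and 148 when the mitochondrial rows were left out first, while ratios and shares do not change with such scaling. Their geometric mean was 122.3 FPKM. Camk4, the lowest member, stood at percentile 87.3 of all rows, 74.7 of protein-coding rows and 59.6 of detected rows, the largest shift with the background among the 9. Pairs at least 2-fold apart numbered 28 with any of the pseudocounts tried (1, 0.1 and none), 30 at a limit of 1.5-fold and 21 at a limit of 4-fold. Of the pathway genes 111 reached 0.1 FPKM and 95 reached 5 FPKM. CaMKII shares weighted by coding length were not run, since protein lengths were not at hand. Depth is unknown, and the split between the calmodulin genes rests on how the authors divided shared fragments.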

Other observations

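Other calcium sensors and buffers reached 1 FPKM in 13 of 14 cases, and their median was 40.4 FPKM. Hpca, hippocalcin, a membrane-binding sensor of pyramidal neurons, was at 482 FPKM, Vsnl1, a visinin-like sensor, at 301 FPKM and Hpcal4 at 166 FPKM. All 3 were below Calm2 and Calm3, and below Camk2a. The potassium channel partner gene Kcnip1 was at 9.83 FPKM and Rcvrn, the sensor of photoreceptors, lowest at 0.122 FPKM.

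Of 20 other enzymes that calmodulin regulates 17 reached 1 FPKM, with a median of 8.43 FPKM. Itpka, an inositol trisphosphate kinase of dendritic spines, was at 93.4 FPKM, Rasgrf1, a Ras activator, at 83.4 FPKM and Adcy1, the calmodulin-stimulated adenylyl cyclase, at 70.5 FPKM. Dapk2, a death-associated kinase, was at 0.772 FPKM and Mylk2, the myosin light chain kinase of skeletal muscle, at 0.0101 FPKM. None of the 20 was as high as Camk2b at 179 FPKM.

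The table lists 2 microRNA genes inside the span of Camk2a. Mir7220, 60 bases long, was at 365 FPKM and Mir6982, 68 bases long, at 253 FPKM. FPKM divides by length, so for genes this short few fragments can give a large value. Whether these values come from the microRNAs or from transcripts of Camk2a was not tested.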
